A study of Rattus norvegicus with 6 samples.

Results

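Tubular injury and dedifferentiation markers, 10 genes in all, were followed in rat renal cortex after anthraquinone. They were taken as a written list, Havcr1, Lcn2, Clu, Spp1, Gpnmb, Cd44, Vcam1, Krt18, Sox9 and Prom1, and a probe counted as a member if its accession belongs to one of these symbols. In all, 20 probes matched 9 of the 10 genes, out of 15284 symbols with a probe. Sox9, which encodes a transcription factor of regenerating tubules, had no probe matched to its symbol and was not analysed here. Anthraquinone, a tricyclic quinone, had been given to 3 male Sprague-Dawley (Crl:CD(SD)) rats at 1000 mg/kg/day for 4 weeks, and 3 rats of the same stock and sex had received the corn oil vehicle for 4 weeks. All were 5 weeks old when bought and ate a basal diet, and the route of dosing is not given in the sources used here. Each animal was measured on its own 1-colour Agilent array, and p-values therefore measure the spread between these animals.

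Injured tubule cells lose transport functions and switch on genes that are low in resting epithelium. Havcr1 encodes kidney injury molecule 1, a phosphatidylserine receptor that lets proximal tubule cells engulf dead neighbours and whose outer part is shed into urine. Lcn2 encodes lipocalin 2, which binds iron-carrying siderophores, Clu encodes the secreted chaperone clusterin, and Spp1 encodes osteopontin, a secreted phosphoprotein that in healthy kidney comes mainly from distal segments. Cd44 is the hyaluronan receptor, Vcam1 an adhesion receptor for leukocytes, and Krt18 a keratin of simple epithelia. Prom1 encodes prominin 1, a membrane glycoprotein of microvilli that is also used as a progenitor marker, and Gpnmb a lysosomal glycoprotein made by macrophages and by stressed epithelium.

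The values are log2 processed intensity minus the array's 75th percentile, so 0 is the level of a bright but not extreme probe, and each gene is read on its brightest probe. Levels of different genes are not compared, since each probe has its own response. The 75th percentile lay between 844 and 880 intensity units on the anthraquinone arrays and between 903 and 1191 on the corn oil arrays, and 64.2 to 66.1% of probes in the anthraquinone group and 68.7 to 70.7% in the corn oil group were well above background. One slide, scanned on a day of its own, held corn oil replicate 1 and none of the other arrays. On the shared slide, all anthraquinone arrays lay in row 2 and corn oil replicates 2 and 3 in row 1, so group and row cannot be told apart there. The labelled tissue was checked against its markers. All 22 proximal tubule genes and all 6 podocyte genes looked for passed the detection rule, well above background on every array of a group. Among them were Slc34a1 and Lrp2, and the thick ascending limb gene Umod passed as well. All 7 principal cell genes and all 6 inner medulla and thin limb genes passed too, so this check shows kidney tissue and cannot tell cortex from medulla. The 9 members were well above background on all 6 arrays.

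The groups separated for 2 members and overlapped for 7. Gpnmb was higher in every anthraquinone animal than in any corn oil animal, and Prom1 was lower in every anthraquinone animal. Havcr1 was high in 1 anthraquinone animal and near the corn oil level in the other two. With limma across all 32663 gene entries, 0 of the 9 members passed an adjusted p of 0.05, where 0.0276% of all entries did, 0.0153% higher and 0.0122% lower. At an unadjusted p under 0.05 stood 2 of the 9, Gpnmb higher and Prom1 lower, where 17.1% of all entries did, 9.47% higher and 7.65% lower. The groups did not overlap for 25.2% of all entries, so 2 of 9 is a share near the background. The median difference of the 9 was 0.19, against 0.0074 over all entries, and 6 of the 9 were positive, against 51.6% of entries. That median depends on single animals: it was 0.42, 0.026 and 0.029 when anthraquinone replicate 1, 2 or 3 was left out, and 0.032, 0.084 and 0.16 when corn oil replicate 1, 2 or 3 was.

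Among the markers that are released from cells, Havcr1 stood at -4.65, -4.15 and -1.48 in anthraquinone replicates 1, 2 and 3 and at -4.78, -4.80 and -4.43 in corn oil replicates 1, 2 and 3. Anthraquinone replicate 3 was 6.35-fold above the next highest array, while replicate 1 lay below the highest corn oil animal, so the groups overlap. The means were -3.43 ± 1.70 in the anthraquinone group and -4.67 ± 0.21 in the corn oil group (SD, n = 3 each). The difference of 1.24 ± 0.80 on the log2 scale (SE, limma adjusted p = 0.466) had a 95% interval from -0.70 to 3.19, and an exact two-sided permutation test gave p = 0.2, where 0.1 is the smallest that 3 against 3 animals allow. Without anthraquinone replicate 3 the difference was 0.27. Havcr1 was dim, with a lower corn oil mean in only 7.95% of entries. With normexp on median signals (offset 50), which changes both the background correction and the spot signal, its difference was 0.72. The size therefore depends on the processing, and which of these changes moved it was not tested. The SD of Havcr1 in the anthraquinone group exceeded that in the corn oil group 8.13 times, a ratio larger than that of all but 1.90% of entries.

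Lcn2 stood at -3.06, -1.56 and -1.24 in anthraquinone replicates 1, 2 and 3 and at -2.07, -2.68 and -1.70 in the corn oil replicates. The lowest and the highest of the 6 arrays both belonged to the anthraquinone group, 3.54-fold apart. The difference was 0.19 ± 0.51 (SE, limma adjusted p = 0.880, 95% interval from -1.05 to 1.43), and leaving out single animals gave -0.17 (anthraquinone replicate 3), -0.0057 (anthraquinone replicate 2), -0.074 (corn oil replicate 2) and 0.74 (anthraquinone replicate 1). Of 6 neutrophil genes with a probe, 4 were tested, while Elane and Ngp stayed below the detection rule on the 6 arrays. Of the 4, Csf3r met that rule only through the corn oil group. The mean log2 level of those 4 was -3.10, -3.02 and -2.79 in the anthraquinone group and -2.56, -2.62 and -2.82 in the corn oil group, and their part in the Lcn2 values was not tested.

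Clu stood at 3.20, 3.38 and 4.80 in anthraquinone replicates 1, 2 and 3 and at 2.66, 3.81 and 4.12 in the corn oil replicates. Anthraquinone replicate 3 was again the highest, 1.61-fold above the next array, and the remaining anthraquinone animals lay within the corn oil range. The difference of 0.27 ± 0.55 (SE, limma adjusted p = 0.840) became -0.24 once anthraquinone replicate 3 was omitted. On the 5 arrays of the shared slide, which lack corn oil replicate 1, it was -0.17. A second Clu probe gave 0.34 and correlated with the first at 0.997 over the 6 arrays. Spp1 stood at 1.84, 2.93 and 3.63 in the anthraquinone replicates and at 2.60, 2.87 and 3.13 in the corn oil replicates, so the anthraquinone animals lay below, within and above the corn oil range. Its difference was -0.064 ± 0.44 (SE, limma adjusted p = 0.960, 95% interval from -1.14 to 1.01), and leaving out single animals gave -0.48 (anthraquinone replicate 3), 0.42 (anthraquinone replicate 1) and 0.067 (corn oil replicate 3).

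**Figure D1:**
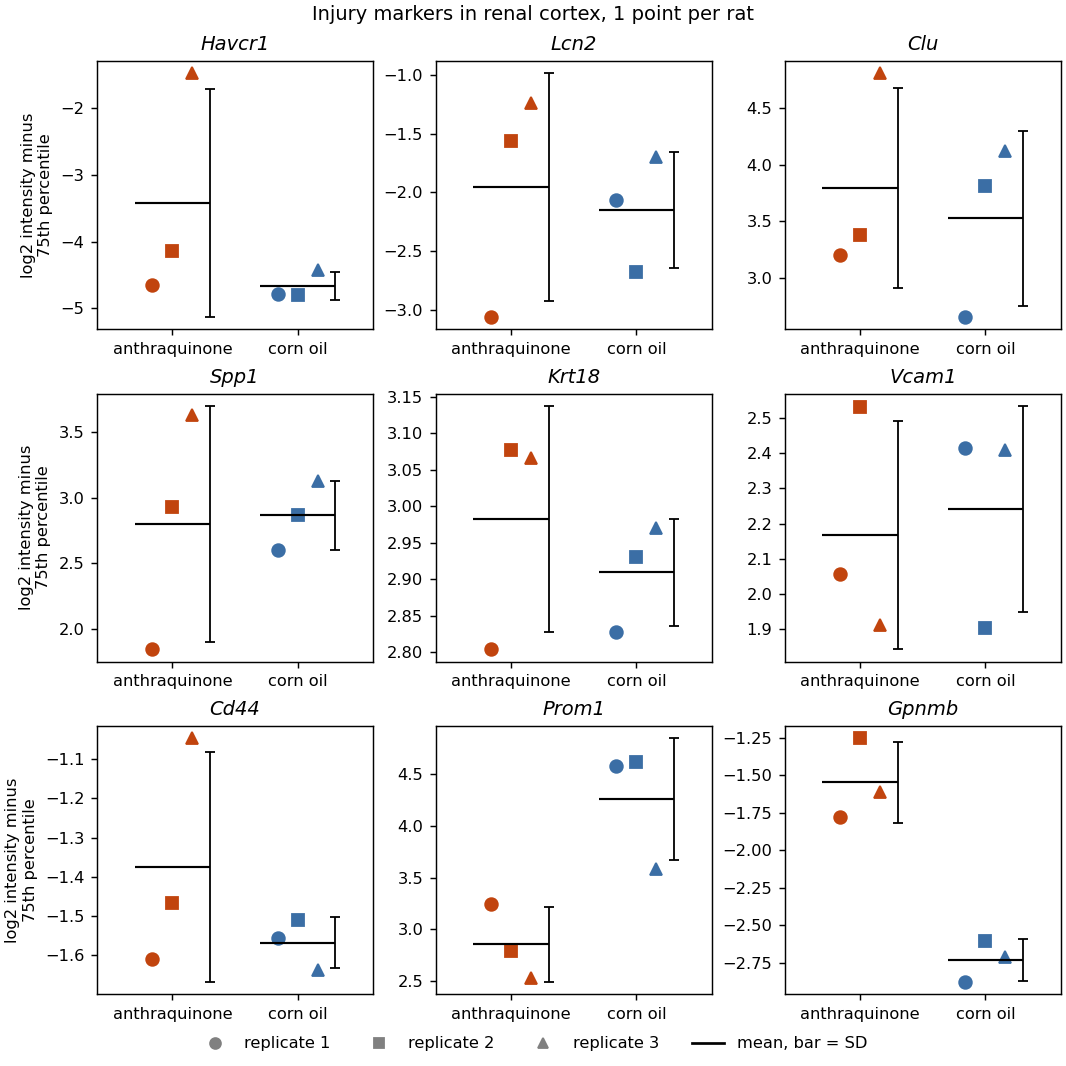
Level of each measured marker (log2 intensity minus the array's 75th percentile, a separate axis for each gene) in 3 anthraquinone rats and 3 corn oil rats, with the group mean as a line and the SD as a bar. Anthraquinone replicate 3 (triangle) is the highest of the 6 animals for Havcr1, Lcn2, Clu, Spp1 and Cd44, and the groups separate for Gpnmb and Prom1.

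Of the adhesion receptors, Cd44 stood at -1.61, -1.47 and -1.05 in anthraquinone replicates 1, 2 and 3 and at -1.56, -1.51 and -1.64 in the corn oil replicates. The corn oil animals lay close together and anthraquinone replicate 3 was 1.34-fold above the next array, while the other two anthraquinone animals overlapped with them. The difference was 0.19 ± 0.15 (SE, limma adjusted p = 0.553), and 0.029 without anthraquinone replicate 3. The array held 6 Cd44 probes, of which 3 were tested, with differences from 0.038 to 0.20 and correlations between them of 0.51 to 0.72, and the other three did not rise well above background anywhere. Vcam1 stood at 2.06, 2.53 and 1.91 in the anthraquinone replicates and at 2.41, 1.90 and 2.41 in the corn oil replicates, with both groups spread over much the same range. Its difference of -0.076 ± 0.21 (SE, limma adjusted p = 0.886) turned positive, at most 0.051, when anthraquinone replicate 3 or either of corn oil replicates 1 and 3 was left out. The endothelial list, which marks a cell type that also makes Vcam1, had mean log2 levels of 0.22, 0.32 and 0.29 in the anthraquinone group and 0.15, 0.30 and 0.36 in the corn oil group.

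Krt18 was the least variable member. It stood at 2.80, 3.08 and 3.07 in the anthraquinone replicates and at 2.83, 2.93 and 2.97 in the corn oil replicates, and the 6 arrays lay within 1.21-fold of each other. Its difference was 0.074 ± 0.10 (SE, limma adjusted p = 0.748, 95% interval from -0.17 to 0.32), and its 3 probes gave differences from 0.015 to 0.10. The interval places any change of Krt18 between 0.886 and 1.25 times the corn oil level.

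Prom1 stood at 3.25, 2.79 and 2.52 in anthraquinone replicates 1, 2 and 3 and at 4.58, 4.62 and 3.58 in the corn oil replicates. Every anthraquinone animal lay below every corn oil animal, and the lowest corn oil animal, replicate 3, lay between the others and the anthraquinone group. The difference was -1.41 ± 0.33 (SE, 95% interval from -2.20 to -0.61), 2.65-fold lower with anthraquinone (limma adjusted p = 0.191, exact permutation p = 0.1, n = 3 each). Larger absolute differences were found in 0.713% of entries. All 4 Prom1 probes showed non-overlapping groups, with differences of -1.41, -1.43, -1.45 and -1.18, and correlated with each other at 0.993 to 0.999. On the slide that held 5 of the arrays the difference was -1.25 (limma adjusted p = 0.334). In bulk tissue, fewer cells of a type and less RNA per cell cannot be told apart.

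Gpnmb stood at -1.78, -1.25 and -1.61 in anthraquinone replicates 1, 2 and 3 and at -2.88, -2.60 and -2.71 in the corn oil replicates. The animals of each group lay close together, within 1.44-fold of each other in the anthraquinone group and within 1.21-fold in the corn oil group, and the groups did not overlap. The means were -1.55 ± 0.27 in the anthraquinone group and -2.73 ± 0.14 in the corn oil group (SD, n = 3 each). The difference of 1.18 ± 0.15 (SE, 95% interval from 0.81 to 1.56) is a 2.27-fold higher level with anthraquinone, and it did not pass the adjusted threshold (limma adjusted p = 0.107, exact permutation p = 0.1). By unadjusted p it was the entry of rank 63, with 0.190% of entries below it. It was 1.11 on the slide with 5 arrays, and 1.04 to 1.30 with any 1 array left out. It was lowest, 0.87, with normexp on median signals. It passed with a trended and robust variance estimate (limma adjusted p = 0.0414) and without the filter on dim probes (limma adjusted p = 0.0199), a setting in which 6611 entries passed, 6053 of them higher.

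Promoter windows, from 250 bases before to 50 bases after the annotated start, were held by the RefSeq table of GRCr8 for 8 of the 10 members. They are shown for the member that separated the groups upward and for the member that was high in a single anthraquinone animal. Capitals mark a match to the AP-1 motif TGACTCA or its reverse complement.
Gpnmb, chr4:79340878-79341177, plus strand: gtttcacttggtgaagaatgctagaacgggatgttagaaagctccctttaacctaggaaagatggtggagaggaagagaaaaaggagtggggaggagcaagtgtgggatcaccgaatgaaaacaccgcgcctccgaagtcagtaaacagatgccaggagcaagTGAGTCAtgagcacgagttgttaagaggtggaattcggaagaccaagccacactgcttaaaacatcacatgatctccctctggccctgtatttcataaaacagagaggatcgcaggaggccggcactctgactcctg
Havcr1, chr10:31629528-31629827, plus strand: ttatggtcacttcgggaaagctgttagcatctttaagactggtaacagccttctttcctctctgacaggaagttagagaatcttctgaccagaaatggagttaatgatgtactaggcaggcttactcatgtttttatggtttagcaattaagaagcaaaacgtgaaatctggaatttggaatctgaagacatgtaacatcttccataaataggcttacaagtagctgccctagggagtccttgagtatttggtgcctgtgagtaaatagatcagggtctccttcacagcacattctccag
The Gpnmb window holds 1 AP-1 match, which begins at position -87 from the start, and Gpnmb was the 1 member with such a match, where 4.63% of 33469 windows have one. The E-box was searched only as the letters CACGTG, and other forms of it were not searched. These letters were found in the Vcam1 window and not in that of Gpnmb (6.42% of all windows). The TATA box TATAAA was found in the windows of Spp1 and Vcam1 (14.2%). The STAT motif TTCCNGGAA was found in 0 members' windows (1.27% of all windows). Both strands were searched, overlapping matches were kept, and a match is a description of these letters and not of binding.

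**Figure D2:**
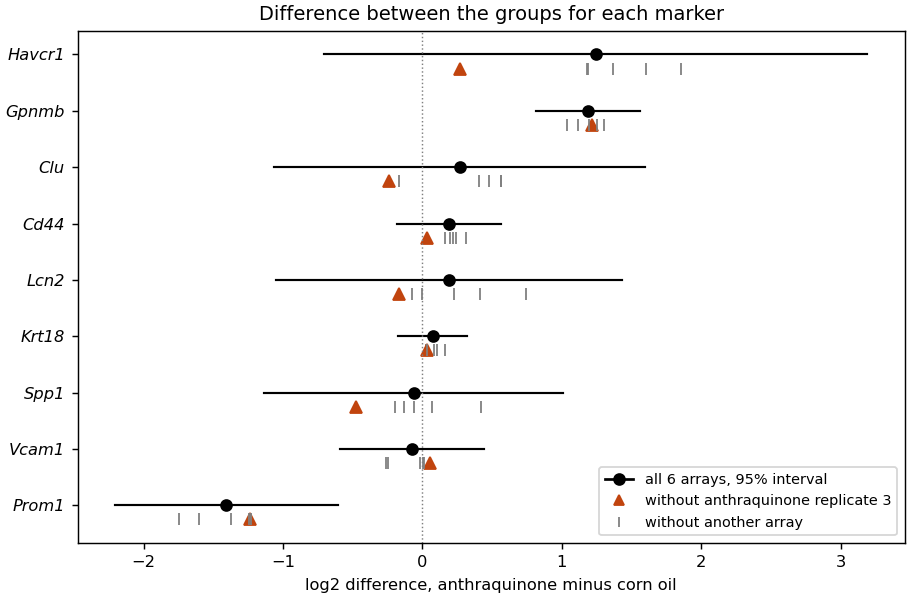
Log2 difference between anthraquinone and corn oil for each measured marker (black point, all 6 arrays, with the 95% interval from limma), the value without anthraquinone replicate 3 (triangle) and without each of the other arrays (tick). The intervals of Gpnmb and Prom1 lie off 0, and the triangle of Havcr1 lies at 0.27 against 1.24 for all arrays.

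Macrophages are a known source of Gpnmb, and their markers lay on both sides of 0. Of 11 macrophage genes 10 were tested, with 0 past the adjusted threshold in limma, 1 higher and 1 lower at an unadjusted p under 0.05, and a median difference of 0.048, against 0.0074 over all entries. Of the 10, 3 were higher and 1 lower in every anthraquinone animal, against 15.0% and 10.2% of all entries, and 5 differences were positive. The complement genes C1qa, C1qb and C1qc had differences of 0.39, 0.31 and 0.32 with groups that did not overlap, and the growth factor receptor gene Csf1r had -0.23, also without overlap. Another tested probe gave 0.31, 0.34 and 0.22 for C1qa, C1qb and C1qc and -0.044 for Csf1r. Cd68, a lysosomal protein of macrophages, had 0.096 and the macrophage receptor gene Adgre1 -0.26, both with overlap. The mean log2 level of the 10 genes ranged from 0.81 to 1.18 in the anthraquinone group and from 0.95 to 0.97 in the corn oil group. Gpnmb is also a target of the lysosomal transcription factors of the MITF and TFE family. A written list of such targets, not all of them lysosomal proteins, held 16 tested genes and shares Cd68 with the macrophage list. Of the 16, with a median of 0.11, 6 were higher in every anthraquinone animal and 0 lower, against 15.0% and 10.2% of all entries. The number was 3 after quantile normalization and 3 after cyclic loess, with medians of 0.018 and 0.026, where 12.0% and 12.3% of all entries were higher in every anthraquinone animal. The autophagy receptor gene Sqstm1 had the largest value, 0.71 ± 0.12 (SE, limma adjusted p = 0.154), with 5.18, 5.26 and 5.48 in the anthraquinone group and 4.46, 4.54 and 4.77 in the corn oil group and a difference of up to 1.03 on its other probes. At the other end stood the Rag GTPase gene Rragd with -0.47 and the receptor gene Trem2 with -0.25, both with overlap, and 0 of the 16 passed the adjusted threshold in limma while 5 had an unadjusted p under 0.05. The part of macrophages in the Gpnmb values was not tested.

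The agreement of the markers was examined over the 6 arrays, for all 36 pairs of the 9 measured members. Havcr1, Lcn2, Clu, Spp1, Cd44 and Krt18 had a positive Pearson r in all 15 of their pairs, from 0.51 to 0.95. They were put together after their values were seen, so the agreement is a description. Without the 2 arrays farthest from the median of 1 marker of each pair, 12 of the 15 were positive, from -0.89 to 0.94. The negative values were those of Cd44 with Havcr1 (-0.89), Clu (-0.30) and Spp1 (-0.34). Anthraquinone replicate 3 was the highest array for 5 of the 9 members, where it was the highest for 22.2% of all entries, and anthraquinone replicate 1 was the lowest for 3 of the 9, where it was the lowest for 13.0%. After each group's mean was subtracted, so that the group difference plays no part, the 15 values ran from 0.50 to 0.94. Within the anthraquinone group, replicate 1 was the lowest and replicate 3 the highest animal for Havcr1, Lcn2, Clu, Spp1 and Cd44.

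No pair passed after adjustment over the 36 pairs. With 720 orders the smallest possible exact permutation p is 0.00139, so a single pair alone could not fall under 0.05 after this adjustment. Before adjustment, 4 pairs had an exact permutation p under 0.05 by Pearson's r and 4 by Spearman's rho, and not all of them were the same pairs. Lcn2 and Spp1 had r = 0.86 (exact permutation p = 0.0194, adjusted p = 0.314) and rho = 0.89 (exact permutation p = 0.0333, adjusted p = 0.30), and r = 0.93 without the 2 arrays farthest from the Lcn2 median. Spp1 and Krt18 had r = 0.83 (exact permutation p = 0.0264, adjusted p = 0.314) and rho = 0.83 (exact permutation p = 0.0583, adjusted p = 0.35), and r = 0.68 without the 2 arrays farthest from the Spp1 median. By rho, Lcn2 and Krt18 and likewise Clu and Spp1 had 0.89 (exact permutation p = 0.0333, adjusted p = 0.30 for each), with r = 0.81 and 0.76 (exact permutation p = 0.0597 and 0.0806, adjusted p = 0.314 and 0.363). Their r without the 2 farthest arrays was 0.91 and 0.76. The remaining pairs under 0.05 by either measure involve Prom1, whose groups form separate clusters, so that no relation over the 6 arrays can be tested for them. Havcr1 and Cd44 had the highest r, 0.95, with rho = 0.43 (exact permutation p = 0.0611 and 0.419, adjusted p = 0.314 and 0.604). It had r = -0.89 without the 2 farthest arrays and 0.26 without anthraquinone replicate 3 alone, so that relation rests on anthraquinone replicate 3. Havcr1 and Clu had r = 0.76 (exact permutation p = 0.0556, adjusted p = 0.314) and rho = 0.54 (exact permutation p = 0.297, adjusted p = 0.563), with r = 0.60 without the 2 farthest arrays. Without anthraquinone replicate 3 alone, the 15 values ran from -0.19 to 0.82, with 14 positive.

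Vcam1 had r from -0.50 to 0.34 with these 6 markers over all arrays. Those values rest on anthraquinone replicate 3: without it, r was 0.89 with Lcn2, 0.68 with Havcr1, 0.47 with Krt18, 0.42 with Spp1, 0.092 with Cd44 and -0.20 with Clu. With each group's mean subtracted, Prom1 had a negative r with every other member, from -0.77 to -0.24. This did not hold in each group by itself. In corn oil replicates 1, 2 and 3, Cd44 (-1.56, -1.51 and -1.64) had the order of Prom1 (4.58, 4.62 and 3.58). Without anthraquinone replicate 3 and with group means kept, r with Prom1 ran from -0.86 to 0.12. The group-centred r of Gpnmb ran from -0.24 to 0.77, highest with Krt18. With Havcr1, Gpnmb had a group-centred r of -0.049. These are 6 arrays with 2 means removed, given with no test.

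**Figure D3:**
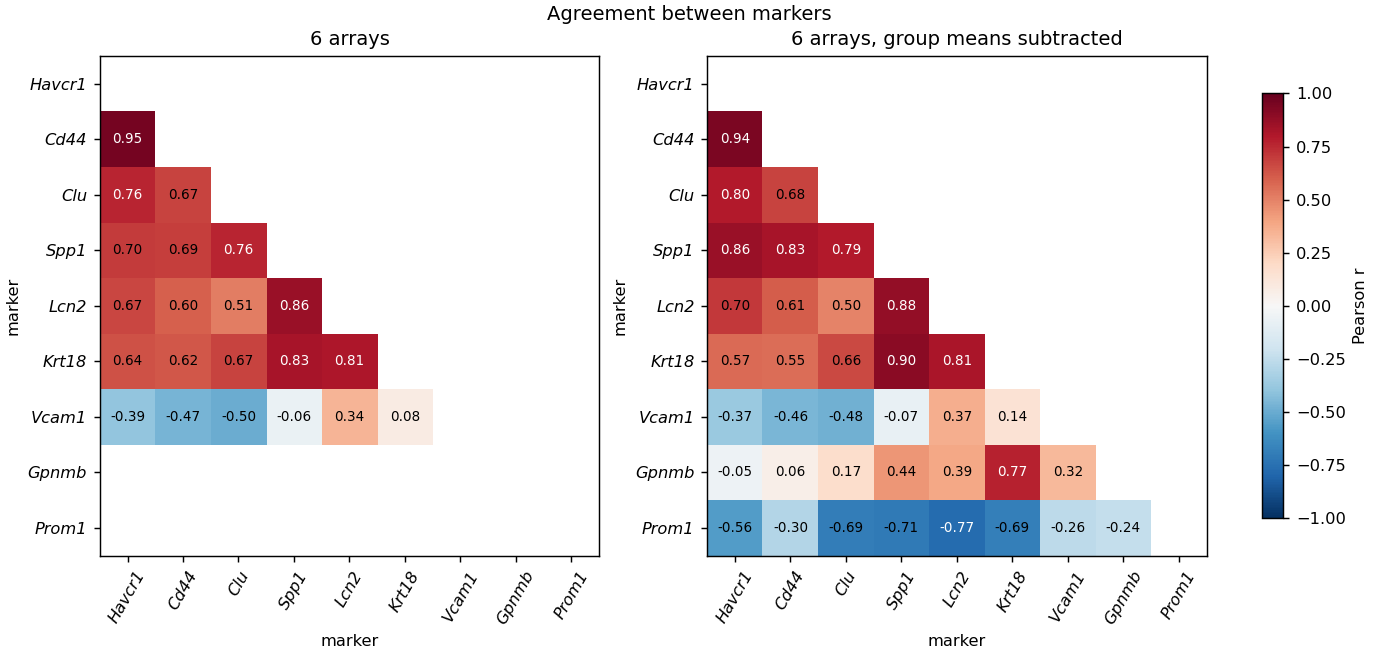
Pearson r between markers over the 6 arrays (left) and after subtraction of each group's mean (right), with red for positive and blue for negative values. Pairs with Gpnmb or Prom1 are left blank on the left because their groups form separate clusters, and the block of Havcr1, Cd44, Clu, Spp1, Lcn2 and Krt18 is positive throughout on both sides.

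Among 11239 other named genes well above background on all arrays, the 2 most like each member were found by Pearson r over the 6 arrays. With so many genes and 6 arrays, high values are common, and 123 genes had r over 0.95 with Gpnmb, 102 with Prom1 and 46 with Havcr1. Havcr1 was closest to the netrin receptor gene Unc5b (r = 0.995) and the immediate early gene Ier2 (0.993). Unc5b stood at -4.36, -4.13 and -1.63 in the anthraquinone group and at -4.41, -4.59 and -4.06 in the corn oil group, the same single high animal as for Havcr1. Lcn2 was closest to Cerk and Kdr, Clu to Trappc5 and Map3k1, Spp1 to Mgll and Nbn, Cd44 to Ddx27 and Nkiras1, Vcam1 to Pgam2 and Sec61a2, and Krt18 to Slc27a1 and Abcd3. Gpnmb was closest to Eid3 and Slc16a8 (0.997 each), and Prom1 to the histone gene Hist1h2bd (0.999) and the zinc finger gene Zfp521 (0.995). Since the groups of Gpnmb and Prom1 form separate clusters, these r values also hold the group difference. Hist1h2bd stood at 1.29, 1.17 and 1.09 in the anthraquinone group and at 1.59, 1.61 and 1.35 in the corn oil group, the order of Prom1 on a smaller scale.

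Beyond the members, further genes of injured tubules were read from written lists. Of 18 tested genes of the cytoskeleton, adhesion and progenitor list, 0 passed the adjusted threshold in limma, and 2 higher and 3 lower had an unadjusted p under 0.05, against 9.47% and 7.65% of all entries. Their median was -0.095, with 2 higher and 4 lower in every anthraquinone animal, against 15.0% and 10.2% of all entries. Krt8, the keratin that pairs with Krt18, had 0.33 ± 0.13 (SE, limma adjusted p = 0.270), with 2.56, 2.97 and 2.96 in the anthraquinone group and 2.51, 2.48 and 2.51 in the corn oil group, and the galectin gene Lgals3 had 0.36. Lower in every anthraquinone animal were the keratin gene Krt19, with -0.72 ± 0.24 (SE, limma adjusted p = 0.237), and Cd24, which encodes a surface protein paired with prominin 1 as a progenitor marker, with -0.42 ± 0.15 (SE, limma adjusted p = 0.248). Krt20 and Mmp7, both used as tubular damage markers, were too dim to be tested.

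Of 15 tested secreted injury markers, 0 passed in limma and 3 higher and 2 lower had an unadjusted p under 0.05, against 9.47% and 7.65% of all entries, with a median of 0.11. The stress cytokine gene Gdf15 had 1.64 ± 0.32 (SE, limma adjusted p = 0.175), with 0.78, 1.28 and 2.11 in the anthraquinone group and -0.38, -0.15 and -0.22 in the corn oil group, and again its highest value in anthraquinone replicate 3. The ceruloplasmin gene Cp had 0.33, and other Cp probes went down to 0.064. The trefoil factor gene Tff3 had -1.36 ± 0.37 (SE, limma adjusted p = 0.203), with 5.81, 4.84 and 4.74 in the anthraquinone group and 6.90, 6.65 and 5.91 in the corn oil group, and the chemokine gene Cxcl1 had -0.75. The groups did not overlap for 6 of the 15, against 25.2% of all entries. After quantile normalization or cyclic loess they did not overlap for 3 of the 15, against 22.6% and 23.4% of all entries.

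Of 18 tested early response and signalling genes, 0 passed in limma, 3 higher and 1 lower had an unadjusted p under 0.05, against 9.47% and 7.65% of all entries, and the median was 0.019. In this list 1 gene passed with a trended, robust variance and 3 without the filter on dim probes. Areg, which encodes the epidermal growth factor receptor ligand amphiregulin, had the largest difference of any listed gene, 3.38 ± 0.61 (SE, limma adjusted p = 0.157). It stood at 0.21, 0.44 and 2.52 in the anthraquinone group and at -2.14, -2.17 and -2.65 in the corn oil group. The groups were far apart, and anthraquinone replicate 3 was the highest. Myc, a growth-promoting transcription factor, had 1.07 ± 0.27 (SE, limma adjusted p = 0.197). The monocyte attractant gene Ccl2 had -1.09 ± 0.18 (SE, limma adjusted p = 0.138), with every anthraquinone animal below every corn oil animal, and the immediate early gene Fos had -0.61 with overlap.

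**Figure D4:**
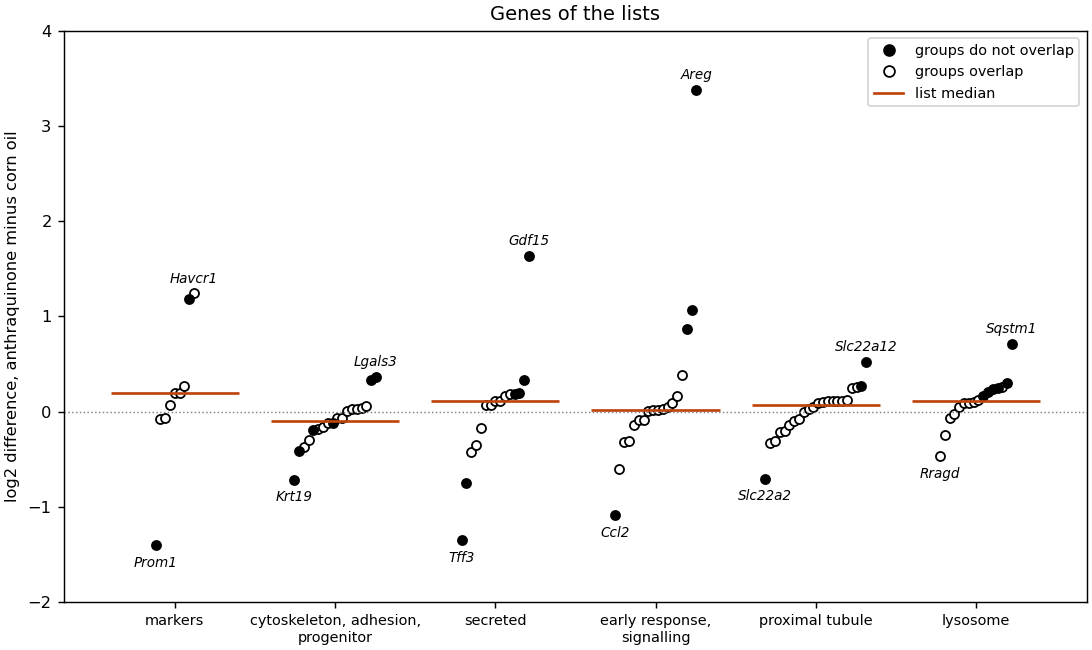
Log2 difference between anthraquinone and corn oil for each tested gene of 6 lists, filled where the groups do not overlap, with the list median as a line and the lowest and highest gene of each list named. The medians lie between -0.095 and 0.19, and Areg, Gdf15, Tff3, Prom1 and Ccl2 stand apart from their lists.

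Differentiated proximal tubule genes, the reverse side of injury, gave 0 of 22 past the threshold in limma, 2 higher and 1 lower at an unadjusted p under 0.05 (9.47% and 7.65% of all entries), and a median of 0.070, which was -0.079 after quantile normalization and -0.10 after cyclic loess. The urate transporter gene Slc22a12 had 0.52 ± 0.16 (SE, limma adjusted p = 0.222) and the gluconeogenic enzyme gene Fbp1 had 0.27. The cation transporter gene Slc22a2 had -0.70 ± 0.21 (SE, limma adjusted p = 0.216), with 4.64, 4.18 and 4.57 in the anthraquinone group and 5.36, 5.39 and 4.76 in the corn oil group, and the transcription factor gene Hnf4a had -0.33, which was 0.0040 on another probe. Slc22a2, like Prom1, had its lowest corn oil value in replicate 3.

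Of the markers of other cells that could carry the members, 0 passed the adjusted threshold in limma in any list. At an unadjusted p under 0.05, 4 of 7 principal cell genes were lower and 1 was higher, against 7.65% and 9.47% of all entries. The other lists, of 2 to 10 tested genes, had up to 2 lower and up to 1 higher each. The largest value was -0.49 for Scin among 4 parietal epithelial genes, 0.36 for Pdgfrb among 7 fibroblast and pericyte genes and 0.25 for Tek among 7 endothelial genes. It was 0.39 for C1qa among the macrophage genes, -0.94 for Csf3r among the neutrophil genes and -1.40 for Cd79b among 6 lymphocyte genes. Csf3r and Cd79b met the detection rule only through the corn oil group. They were well above background on 2 (Csf3r) and 1 (Cd79b) of the anthraquinone arrays, so these sizes are uncertain. Among distal segments the largest value was -0.92 for Ppp1r1b in 6 thick ascending limb genes, -0.62 for Calb1 in 2 distal convoluted tubule genes and -0.72 for Scnn1b in 7 principal cell genes, with medians of -0.27, -0.50 and -0.46. Spp1, Clu and Prom1 are also made in distal or medullary segments, and the mean log2 level of the inner medulla and thin limb genes was -0.11, -0.14 and 0.076 in the anthraquinone group and 0.0078, 0.16 and -0.24 in the corn oil group. Their part in the members' values was not tested.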

How the data were processed

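Spot intensity comes from the authors' deposited scanner output. Per the file headers the software was Feature Extraction 10.7.1.1 from Agilent (10.7 per the submitters' processing notes), with background and spatial trend corrected by that software and no scaling between arrays. The authors also deposited a table of intensity per probe, which equals the processed intensity divided by each array's 75th percentile within 0.01 log2 for 90.7 to 97.0% of probes. Its column medians were 0.109 to 0.111 for anthraquinone and 0.109 to 0.114 for corn oil; the table is on a linear scale without centring of genes, and no header states this.

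Processed intensities were scaled to the 75th percentile of 61657 non-control probes and turned into log2 values. Between 2 and 13 outlier-flagged spots per array were left out. Probes were named by accession through RefSeq of rat GRCr8, for names only, since the array was designed on rn4. This named 27460 probes, none with several symbols. Tests took the 41310 probes that every array of either group measured well above background, and a gene was its brightest tested probe. Unnamed probes stood alone, which gave 32663 entries, 11831 with a symbol. The test was limma 3.58.1 under R 4.3.3 (lmFit, then eBayes), without covariates; p-values were adjusted by Benjamini and Hochberg's method across the entries, with a threshold of 0.05, and the fit was tested on simulated data. Pairs of members were tested by exact permutation over 720 orders. Precision is limited by the number of arrays.

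The genes named are all members, from each gene list those past the test or otherwise the 2 largest positive and 2 largest negative differences, from each cell type list the largest absolute difference, and the 2 genes most like each member. C1qb, C1qc, Csf1r, Cd68, Adgre1, Krt20, Mmp7 and the tissue markers were added after their values were seen. A few genes that this rule names are not reported here. The members and lists were chosen with earlier results of these data known. Normexp was run on median spot signals, since the columns read hold medians. No label says that replicate numbers pair the animals. In all, 20 alternatives were run.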

Additional observations from a re-analysis of the deposited data

How the results depend on the processing

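Over 20 alternatives, Havcr1, Gpnmb, Cd44, Krt18 and Prom1 kept their direction. The members' median, 0.19, ran from 0.026 to 0.42 with single arrays left out and was 0.032 with the slide as a block. The number of members past the threshold was 1, Gpnmb, without the filter on dim probes and with a trended, robust variance, and 0 otherwise, also with any 1 array left out. Leaving out single arrays gave -0.17 to 0.74 for Lcn2, -0.24 to 0.56 for Clu, -0.48 to 0.42 for Spp1 and -0.26 to 0.051 for Vcam1. Reversed values were those of Clu (-0.17 with the slide as a block or without corn oil replicate 1, -0.24 without anthraquinone replicate 3), Vcam1 (0.034 with array weights, 0.010 on the shared slide, 0.051 when anthraquinone replicate 3 and 0.0071 when corn oil replicate 3 was omitted), Spp1 (0.42 without anthraquinone replicate 1, 0.067 without corn oil replicate 3) and Lcn2 (-0.0057 and -0.17 without anthraquinone replicates 2 and 3, -0.074 without corn oil replicate 2), none of them past the threshold in any setting. The number of entries past the test, 9, was 16 with normexp, 6611 without the filter, 14 with every probe its own entry, 81 with a trended, robust variance, 2 with the slide as a block, 54 at a threshold of 0.10 and 1 to 25 with an array left out. With the replicate number as a block it was 1, and the members past the threshold stayed at 0. Deviations of animals with the same number correlated at 0.028, -0.059 and -0.0074, so the numbers were not taken as pairs. Member pairs with an exact p under 0.05 numbered 4, and 9 with normexp on median signals, which changes both the background correction and the spot signal. Without the filter, 1 to 3 genes passed in each of the other gene lists except that of the proximal tubule, and 1 early response gene passed with a trended, robust variance. Without the filter, dim spots enter, and most of the added calls were higher. The causes of these shifts were not tested. Of 200 list medians and counts recomputed, 180 stayed within the spread between animals or within 1.5 times the main count. The counts of list genes whose groups do not overlap, under 3 alternatives, were added after seeing the data.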
